A study of Arabidopsis thaliana with 24 samples.

Results

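These are H3K9ac peaks of Arabidopsis seedlings whose signal was higher in continuous white light than in darkness. The signal was not yet that high after 1 h of red light. In dark-grown seedlings that lack 4 PIF proteins, it was below 1.2 times that of dark-grown wild type. After 0.07 was added to each value, a peak was kept if wild type in white light was at least 1.5 times wild type in darkness, wild type after red light was below 1.5 times wild type in darkness, and dark-grown pifq was below 1.2 times dark-grown wild type. The members were thus chosen by 4 measured values per peak, those of wild type in darkness, red light and white light and of dark-grown pifq. The 2 wild type limits kept 988 of 19435 entries of the deposited table, or 5.08%, and all 3 limits kept 76, or 0.391%. The 76 entries belong to 76 genes and to 74 distinct peaks, because 2 peaks were assigned to a pair of genes each.

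The study profiled acetylation of lysine 9 of histone H3 by chromatin immunoprecipitation and sequencing in seedlings collected at an age of 2 days. Wild type (wt) was the accession Col-0, and pifq is a line of the same species with mutations in PIF1, PIF3, PIF4 and PIF5. Each genotype was sampled in true darkness (D), after 47 h of darkness followed by 1 h of red light at 10 µE (R1h), and in continuous white light at 100 µE (WLc), which makes 6 groups with 3 H3K9ac libraries each and 1 input library each. For true darkness the sources describe white light to start germination and a far-red pulse, and they differ on whether the cold treatment came before or after; no such pulse is described separately for WLc. WLc differs from R1h in the length, the colour and the strength of the light at the same time, and these cannot be told apart. The quadruple mutant is 1 line, and whole seedlings were used, so that an altered share of a cell type and an altered mark within cells cannot be told apart.

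The deposited table gives 1 pooled value per peak and group, a signal per base pair of peak. There is therefore no spread between replicates, no standard deviation and no test for any comparison reported here, and the read depth behind the values is unknown. Differences are given as ratios or as log2 ratios, always after 0.07 was added, which makes the ratios of weak peaks smaller than those of the raw signals. Counts of members at or past 1.5-fold are set beside the same count over all entries of the table.

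H3K9ac is laid down by histone acetyltransferases and removed by deacetylases, and it marks the first part of transcribed genes. PIFs are basic helix-loop-helix transcription factors that accumulate in darkness and keep the seedling in its dark growth form, with a long hypocotyl and closed cotyledons. Light-activated phytochromes bind them and cause their destruction within minutes, and seedlings that lack these 4 PIFs look partly light-grown in the dark. PIFs bind DNA at the G-box, CACGTG, and at a related element, CACATG.

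Promoters of 3 member genes are shown because the results below turn on these genes and their start regions hold G-boxes, with CACGTG and CACATG, read on either strand, in capitals. Each runs from 250 bases before to 50 bases after the annotated gene start, on the strand of the gene, in the RefSeq sequence of build TAIR10.1. The LHY window is chr1:37822-38121 on the minus strand, the MPK5 window is chr4:6891676-6891975 on the plus strand and the BT1 window is chr5:25335521-25335820 on the minus strand.
LHY: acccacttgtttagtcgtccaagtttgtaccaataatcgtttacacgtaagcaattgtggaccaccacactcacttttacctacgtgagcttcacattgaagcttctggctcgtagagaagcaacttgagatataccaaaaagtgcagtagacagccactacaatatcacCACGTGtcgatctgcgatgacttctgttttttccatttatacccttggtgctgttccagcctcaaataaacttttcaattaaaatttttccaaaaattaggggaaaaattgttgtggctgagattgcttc
MPK5: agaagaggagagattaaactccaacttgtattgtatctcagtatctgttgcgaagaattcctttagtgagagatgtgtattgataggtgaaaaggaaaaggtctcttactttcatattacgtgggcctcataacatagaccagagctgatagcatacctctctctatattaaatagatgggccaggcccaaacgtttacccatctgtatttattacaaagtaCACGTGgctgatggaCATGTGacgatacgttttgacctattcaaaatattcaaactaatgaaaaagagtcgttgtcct
BT1: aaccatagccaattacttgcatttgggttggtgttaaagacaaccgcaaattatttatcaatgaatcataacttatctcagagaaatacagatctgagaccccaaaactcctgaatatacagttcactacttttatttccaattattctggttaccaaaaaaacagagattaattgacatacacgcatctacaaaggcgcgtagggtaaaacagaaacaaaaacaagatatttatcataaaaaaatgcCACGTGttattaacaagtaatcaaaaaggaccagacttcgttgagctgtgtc

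The first base of the G-box lies at position -80 from the gene start in LHY, at -28 in MPK5 and at -2 in BT1. MPK5 also has a CACATG element at -13. A match of letters is a description of the window and not a measured binding site.

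Many members lie far from such windows. Peaks at PHT4;3 and CYCA2;4 are shown whole because they had the largest wt ratio of the set and the shortest length of the set, in that order. They are written on the strand of the gene, without capitals, since neither holds CACGTG or CACATG. The PHT4;3 peak is chr3:17307450-17307600 on the minus strand, 151 bp long, and the CYCA2;4 peak is chr1:30215955-30216076 on the plus strand, 122 bp long. The table does not say whether its starts count from 0 or 1, and the sequences were read as if they counted from 0.
PHT4;3: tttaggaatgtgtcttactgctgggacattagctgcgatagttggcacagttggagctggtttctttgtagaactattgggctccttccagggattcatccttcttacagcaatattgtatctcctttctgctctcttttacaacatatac
CYCA2;4: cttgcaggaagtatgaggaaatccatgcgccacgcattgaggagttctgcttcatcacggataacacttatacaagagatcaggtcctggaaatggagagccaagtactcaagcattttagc

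The members were weak peaks in the dark. Their median signal was 0.329 in wt D, 0.388 in wt R1h and 0.592 in wt WLc, where the median of all values in the table was 0.717. All 76 members were below the median of all peaks in wt D, and 65 of 76 were still below it in wt WLc. In pifq, the median was 0.35 in D, 0.428 in R1h and 0.532 in WLc. The first 4 of these 6 medians describe values that chose the members, whereas pifq R1h and pifq WLc had no part in the choice.

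**Figure D1:**
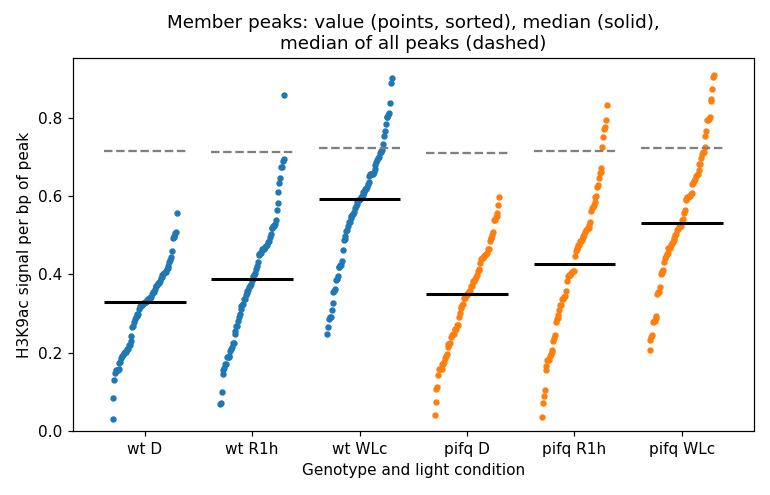
H3K9ac signal per bp of peak (y axis) of the 76 members in the 6 combinations of genotype and light (x axis), with wt in blue and pifq in orange. Points are members sorted by value, the solid line is their median and the dashed line the median of all peaks. The medians of the members in WLc, 0.592 in wt and 0.532 in pifq, lie above those of the other light conditions in each genotype and below the dashed lines.

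By the rule, every member was at least 1.5 times higher in wt WLc than in wt D, beside 8.6% of all entries, and none was that much lower, beside 6.95%. The log2 ratio of wt WLc to wt D ranged from 0.59 to 1.76 with a median of 0.70, and 10 of them reached a ratio of 2. In wt R1h, 65 members lay between their wt D and wt WLc values and 11 lay below wt D. Dark-grown pifq was below dark-grown wild type at 21 members. At the other 55 (72.4%) it was above, but below 1.2 times wild type, beside 48.7% of all entries above wild type by any amount. The median log2 ratio of pifq D to wt D was 0.15, beside -0.005 for all entries. All 3 ratios of the rule share the wt D value, so nothing is read from their sizes.

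**Figure D2:**
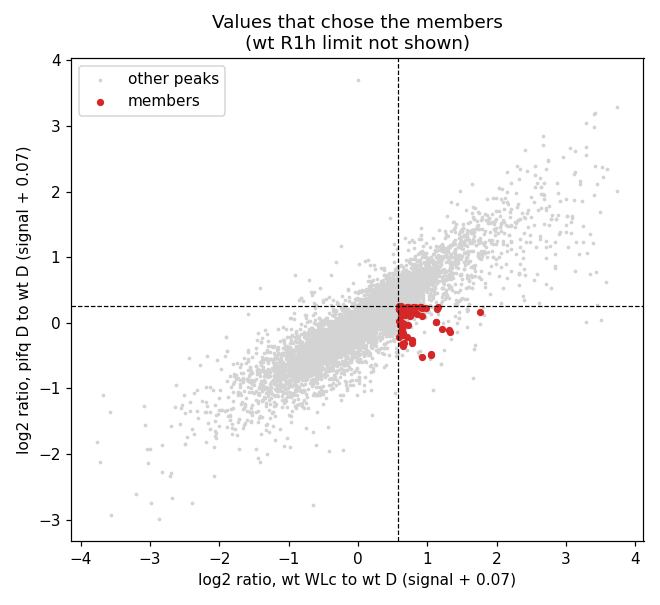
log2 ratio of wt WLc to wt D (x axis) and of pifq D to wt D (y axis) after adding 0.07, for the 76 members (red) and the other entries of the table (grey). Dashed lines are the limits of 1.5 and 1.2, and the members fill the lower right part by construction, with x values from 0.59 to 1.76.

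The values next to the limits were close together. At the white light limit, LARP1b, with a ratio of 1.502, and AT5G53920, with 1.503, were kept, and NCS1, with 1.498, and NHL12, with 1.494, were not. At the red light limit, LHY, with 1.489, and MES16, with 1.490, were kept, and AT1G15170, with 1.521, and AT5G42250, with 1.538, were not. At the limit for dark-grown pifq, NPQ1 and AT5G53920 were kept with 1.195 and 1.196, and AT2G38740 and RRA2 were left out with 1.201 each. Membership of these genes therefore rests on differences of a few hundredths of a ratio at most.

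The comparison of pifq WLc with pifq R1h uses none of the values that chose the members, and it asks whether the peaks were also higher in white light when the 4 PIFs were missing. H3K9ac was at least 1.5 times higher in pifq WLc than in pifq R1h at 18 of 76 members, or 23.7%, beside 1.81% of all entries, and at least 1.5 times lower at 0 members, beside 0.617%. The median log2 ratio of the members was 0.28, with a range from -0.56 to 2.06, and that of all entries was 0.005. pifq WLc was above pifq R1h at 63 members (82.9%), beside 51.9% of all entries, and below it at 13. The rule still bears on this comparison, since it held pifq D low and wt WLc high. Over all entries, the quartiles of the log2 ratio of pifq R1h to pifq D were -0.079 and 0.079. Those of pifq WLc to wt WLc were -0.079 and 0.10. How much of the higher ratios at the members follows from the choice was not tested. With 1 pooled value per group, the comparison is a description of these libraries.

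Weak peaks carried much of this count. Of the 76 members, 33 were among the lowest 10% of entries by mean signal, and 14 of these 33 were at least 1.5 times higher in pifq WLc than in pifq R1h, beside 13.7% of all entries of that stratum. Among the other 43 members, 4 were that much higher, or 9.30%, beside 0.486% of all entries at that level. Their median log2 ratio was 0.19, and that of the weak members was 0.48.

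Late light-gained peaks that were higher in dark-grown pifq had smaller ratios of pifq WLc to pifq R1h. Of the 374 entries with the same wt limits and a pifq D to wt D ratio from 1.2 to below 1.5, 16 (4.28%) were at least 1.5 times higher in pifq WLc than in pifq R1h, with a median log2 ratio of 0.09. Of the 538 entries with a pifq D to wt D ratio of at least 1.5, 28 (5.20%) were that much higher, with a median of 0.08. The difference of the members from these sets was not tested, since no values per library were used. The sets were divided by pifq D, and over all entries pifq R1h lay close to pifq D. How far the order of these medians follows from that division was not tested.

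**Figure D3:**
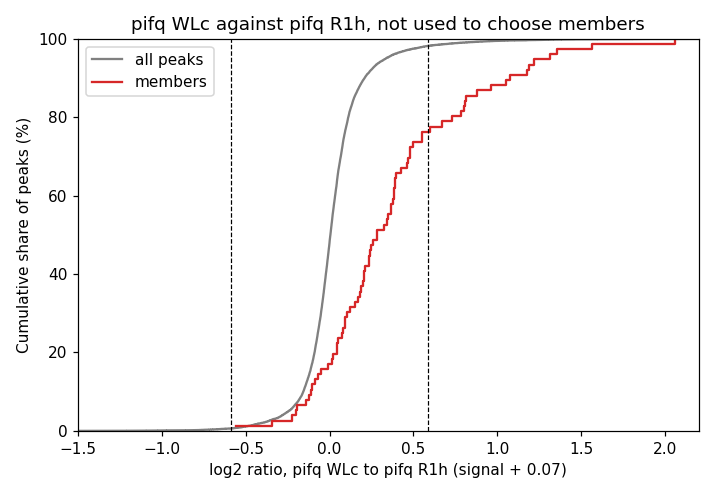
Cumulative share of peaks in percent (y axis) against the log2 ratio of pifq WLc to pifq R1h after adding 0.07 (x axis), for the 76 members (red) and all 19435 entries (grey), with dashed lines at 1.5-fold in each direction. The curve of the members lies to the right, with a median of 0.28 beside 0.005 for all entries; the x axis leaves out the outermost of all entries.

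The genes with the highest ratio of pifq WLc to pifq R1h had diverse products. OFP7, an OVATE family protein, had values of 0.0834, 0.145 and 0.287 in wt D, R1h and WLc and of 0.0733, 0.0723 and 0.523 in pifq in the same order. Its log2 ratio of pifq WLc to pifq R1h, 2.06, was the highest of the set, and its 2 other pifq values were close to each other. The PHT4;3 peak, at a gene of the PHT4 family of phosphate transporters, had 0.0291, 0.0699 and 0.267 in wt D, R1h and WLc and 0.0407, 0.0365 and 0.245 in pifq. It was low in darkness and after red light in each genotype, and its log2 ratio of pifq WLc to pifq R1h was 1.56. Of these, OFP7 and PHT4;3 were picked after their values had been seen, because they were too weak for the rule that named genes.

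BT1 encodes a protein with BTB and TAZ domains. Its member peak had 0.379, 0.482 and 0.785 in wt D, R1h and WLc, and 0.241, 0.237 and 0.714 in pifq. Dark-grown and red-lit pifq were thus below dark-grown wild type, with the lowest log2 ratio of pifq D to wt D in the set, -0.53, and white-light-grown pifq was near white-light-grown wild type. The log2 ratio of pifq WLc to pifq R1h was 1.35. This peak is 278 bp long and centred 1358 bp from the gene start. BT1 has another peak, 701 bp long and centred 563.5 bp from the start, that was not a member. It had 0.514, 0.417 and 0.714 in wt D, R1h and WLc and 0.405, 0.338 and 0.515 in pifq. At that peak pifq WLc was further below wt WLc than at the member.

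Peaks assigned to growth and cell division genes were among the members. TCH4, a xyloglucan endotransglucosylase/hydrolase that remodels cell walls and is known for its response to touch, had 0.201, 0.210 and 0.611 in wt D, R1h and WLc and 0.176, 0.289 and 0.630 in pifq. CYCA2;4, an A-type cyclin, had 0.445, 0.564 and 0.838 in wt and 0.539, 0.487 and 0.910 in pifq. CYCD6;1, a D-type cyclin known from formative divisions in the root, had 0.177, 0.0994 and 0.396 in wt and 0.196, 0.0887 and 0.289 in pifq. For all 3 genes WLc was the highest condition in each genotype, and CYCD6;1 was lower after red light than in darkness in each genotype.

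ROH1, annotated here as an uncharacterized protein, had 0.294, 0.312 and 0.544 in wt D, R1h and WLc and 0.340, 0.404 and 0.804 in pifq. AT1G68470, of the exostosin family of glycosyltransferases, had 0.209, 0.269 and 0.554 in wt and 0.259, 0.409 and 0.767 in pifq. At each of these genes pifq WLc was the highest of the 6 values.

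Other members were as high or higher in pifq after red light. MES16, a methylesterase that acts in chlorophyll breakdown, had 0.431, 0.676 and 0.710 in wt D, R1h and WLc and 0.485, 0.777 and 0.708 in pifq. GLTP3, a glycolipid transfer protein, had 0.461, 0.525 and 0.734 in wt and 0.547, 0.658 and 0.590 in pifq. AT2G04800, an uncharacterized protein picked after its values had been seen, had 0.203, 0.214 and 0.358 in wt and 0.226, 0.338 and 0.207 in pifq, and its log2 ratio of pifq WLc to pifq R1h, -0.56, was the lowest of the set. At these 3 genes white light was not the highest condition in pifq.

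The rule applied the label of not being gained in pifq to darkness only, and in white light the members were divided. pifq WLc was above pifq D at 74 of 76 members (97.4%), beside 51.9% of all entries. It was at least 1.5 times higher at 35, beside 3.79% of all entries, and at least 1.5 times lower at 0, beside 1.29%. The other 41 did not reach 1.5 times pifq D, and 13 stayed below 1.2 times pifq D. Against dark-grown wild type, pifq WLc was at least 1.5 times higher at 45 members, beside 9.06% of all entries, and at least 1.5 times lower at 0, beside 6.08%. The rule held pifq D and wt D low, so the counts against either of them are descriptions and support nothing. WLc was the highest of the 3 pifq values at 62 members, and D was the lowest at 62. These orders were not counted over all entries, so nothing is read from them.

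After 1 h of red light, pifq was at least 1.5 times higher than in darkness at 7 members, or 9.21%, beside 1.83% of all entries, and at least 1.5 times lower at 2, beside 0.643%. The count of 7 depends on the added constant, since it was 15 with 0.007 and 0 with 0.35 or 1. The 7 were LHY, AT1G23205, CYP706A1, AT2G29670, TAT7, LARP1b and MES16, and the 2 were AT3G51720 and CYCD6;1. The rule held the wt R1h value below 1.5 times wt D, so that the same count in wild type is 0 by construction. It set no limit on pifq R1h but held pifq D low, so the counts of pifq R1h against pifq D are descriptions and support nothing. LHY, a MYB-like transcription factor of the central clock, had 0.340, 0.540 and 0.636 in wt D, R1h and WLc and 0.261, 0.514 and 0.684 in pifq. It had the largest log2 ratio of pifq R1h to pifq D, 0.82, and its wt R1h to wt D ratio was 1 of the 2 closest to the red light limit, so LHY was already higher after 1 h in each genotype. AT3G51720, a WEB family protein, had 0.323, 0.398 and 0.619 in wt and 0.382, 0.165 and 0.515 in pifq, with pifq R1h the lowest of its 6 values. Genes of these lists that were named for no other reason, AT1G23205, AT2G29670, TAT7 and AT3G51720, were picked after their values had been seen.

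**Figure D4:**
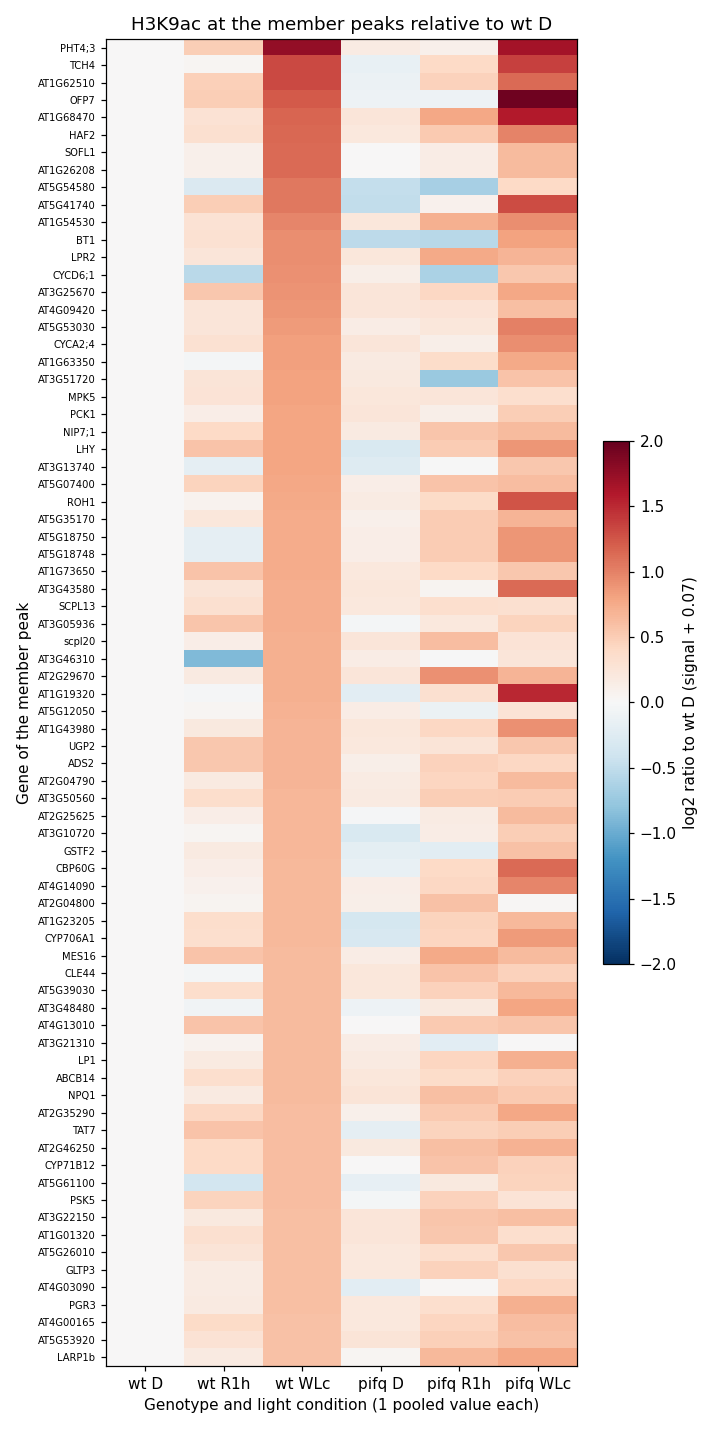
log2 ratio of H3K9ac to wt D after adding 0.07 (colour, red higher and blue lower) for each member (y axis, ordered by the ratio of wt WLc) in the 6 groups (x axis, 1 pooled value each). The wt WLc and pifq WLc columns are the reddest, and the blue cells of pifq R1h include AT3G51720 and CYCD6;1.

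After 1 h of red light, pifq was at least 1.5 times higher than wt at 5 members, beside 2.94% of all entries, and at least 1.5 times lower at 3, beside 4.41%, with wt R1h held low by the rule. In white light the genotypes were close at most members, as they were at most entries of the table. pifq WLc and wt WLc were less than 1.5-fold apart at 71 of 76, and the median log2 ratio of pifq to wt was -0.10. pifq was at least 1.5 times higher at 2 members (2.63%), OFP7 and AT1G19320, beside 1.27% of all entries. It was at least 1.5 times lower at 3 (3.95%), AT5G54580, AT2G04800 and AT3G21310, beside 0.334%. Members were thus this far apart more often than all entries. Of the 5, 1 was left without the lowest 10% of entries by mean signal, and 0 reached 1.5-fold with 0.35 in place of 0.07. The share among entries of like signal was not counted for this comparison, so the excess is not read as a trait of the members. Since the rule required a high wt WLc value, a lower pifq value is not read as a difference between genotypes. In all, pifq was above wt at 26 members (34.2%), beside 52.4% of all entries.

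AT1G19320, a thaumatin-like protein of the pathogenesis-related group, had 0.209, 0.206 and 0.386 in wt D, R1h and WLc and 0.170, 0.280 and 0.727 in pifq, with the largest log2 ratio of pifq to wt in white light, 0.81. AT5G54580, an RNA-binding protein with an RRM motif, had 0.326, 0.256 and 0.754 in wt and 0.215, 0.181 and 0.451 in pifq, with the lowest such ratio, -0.66. AT3G21310, annotated as a core-2/I-branching N-acetylglucosaminyltransferase family protein and picked after its values had been seen, had 0.399, 0.421 and 0.656 in wt and 0.450, 0.337 and 0.401 in pifq. At AT5G54580 white light was still the highest of the 3 pifq values, whereas at AT3G21310 darkness was.

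**Figure D5:**
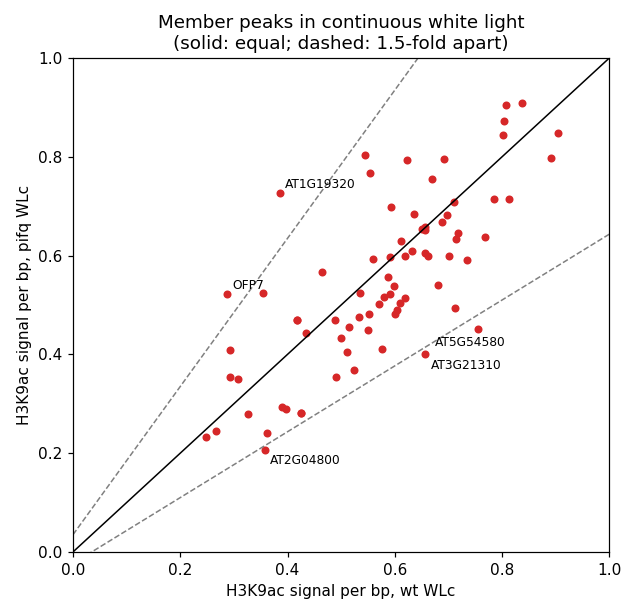
H3K9ac signal per bp of the 76 members in wt WLc (x axis) and pifq WLc (y axis). The solid line marks equal values and the dashed lines 1.5-fold after adding 0.07; the named points are the 5 members outside or on the dashed lines, 2 higher and 3 lower in pifq.

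Across the members, the white light step relative to red light varied together in the genotypes to a moderate degree. The log2 ratio of WLc to R1h in wt and in pifq had a Pearson's r of 0.48 and a Spearman's rho of 0.57 over 76 members, beside 0.25 and 0.20 over all 19435 entries. The red light step, the log2 ratio of R1h to D, had an r of 0.33 and a rho of 0.23 over the members, beside 0.63 and 0.53 over all entries. The points share the 6 groups of libraries, wt values in each pair chose the members and narrowed their range, and the 2 genes of a shared peak count as 2 points, so these are descriptions.

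Further members that reached the median of all values in wt WLc were LPR2, UGP2, AT4G13010, PGR3, AT5G07400, AT2G35290, AT2G46250 and AT5G61100. They were named for this level, and their ratios of wt WLc to wt D ran from 1.90 at LPR2 down to 1.51 at PGR3. LPR2, a multicopper oxidase known from the root response to low phosphate, had 0.370, 0.453 and 0.768 in wt D, R1h and WLc and 0.448, 0.673 and 0.638 in pifq. UGP2, which makes UDP-glucose, had 0.423, 0.646 and 0.718 in wt and 0.502, 0.519 and 0.645 in pifq. PGR3, a plastid RNA-binding protein needed for expression of plastid genes of photosynthesis, had 0.508, 0.583 and 0.803 in wt and 0.598, 0.662 and 0.873 in pifq. The 3 genes differ in pifq, since LPR2 was highest after red light and the other 2 were highest in white light.

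AT4G13010, an oxidoreductase of the zinc-binding dehydrogenase family, had the highest wt WLc value of the set and had 0.557, 0.859 and 0.903 in wt and 0.557, 0.835 and 0.848 in pifq. Most of its step was present after 1 h of red light in each genotype. AT2G35290, a small auxin-up RNA gene also called SAUR79, had 0.499, 0.690 and 0.807 in wt and 0.539, 0.751 and 0.905 in pifq. AT2G46250, a myosin heavy chain-like protein, had 0.497, 0.674 and 0.803 in wt and 0.577, 0.794 and 0.844 in pifq. At these 3 genes the order was D, R1h, WLc in each genotype.

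AT5G07400, a protein with a forkhead-associated domain, had 0.494, 0.694 and 0.891 in wt D, R1h and WLc and 0.550, 0.771 and 0.797 in pifq. AT5G61100, an uncharacterized protein, had 0.505, 0.375 and 0.813 in wt and 0.441, 0.586 and 0.714 in pifq, so that red light was the lowest condition in wt and the middle one in pifq. AT4G14090, a UDP-glycosyltransferase known from anthocyanin modification, had 0.370, 0.395 and 0.623 in wt and 0.412, 0.520 and 0.794 in pifq. LARP1b, an RNA-binding La-related protein, had 0.437, 0.504 and 0.692 in wt and 0.449, 0.725 and 0.795 in pifq. All 4 member peaks were highest in WLc in each genotype.

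Most members lay inside the body of their gene. The peak centre fell in a coding exon at 51 members, in an intron at 16, in a noncoding part of an exon at 8 and outside the gene at 1. The median distance from the gene start to the peak centre was 580 bp downstream, beside 456 bp for all peaks, 465.5 bp for the late light-gained set with a pifq D to wt D ratio from 1.2 to below 1.5 and 569.5 bp for that with a ratio of at least 1.5, and the centre lay over 1000 bp downstream at 20 members (26.3%), beside 16.8% of all entries. It lay upstream of the start at 1 member (1.32%), beside 6.82% of all entries. In the RefSeq annotation used here, the start of the assigned gene was the nearest start of a coding gene for 64 members.

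The peaks were short, as were other late light-gained peaks. Their median length was 551 bp, beside 722.5 bp and 628.5 bp for the late light-gained sets with a pifq D to wt D ratio from 1.2 to below 1.5 and of at least 1.5, and beside 886 bp for all peaks, and 15 (19.7%) were at most 250 bp long, beside 4.16% of all entries. The range was from 122 bp at CYCA2;4 to 2151 bp at GLTP3. The share of G and C had a median of 40.0%, beside 39.5% for all peaks. The authors' signal is per bp of peak, so length does not enter it directly, but a short peak holds fewer reads at the same signal, and the part of this in the results was not tested.

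The most distal member was that of HAF2, a histone acetyltransferase of the TAFII250 family, whose peak centre lay 8414 bp from the gene start in a coding exon. Its values were 0.203, 0.269 and 0.533 in wt D, R1h and WLc and 0.245, 0.323 and 0.475 in pifq. The peak runs past the annotated end of HAF2, and the nearest coding start was that of AT3G19035, 1250.5 bp from the peak centre. The PHT4;3 peak lay 2544 bp from the start of its gene, and the nearest coding start was that of the neighbouring gene PHS2. A peak so far into a gene cannot be assigned to that gene's start, so the values of HAF2 and PHT4;3 describe the interval and not the promoter.

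Of the 76 members, 23 (30.3%) belong to a gene with another peak, beside 17.4% of all entries, and these genes have 24 other peaks. At 16 of the 24 other peaks wt WLc and wt D were less than 1.5-fold apart, at 7 WLc was higher and at 1 it was lower. The main peak of PHT4;3 was at 0.592 in darkness and 0.591 in white light in wt, and the other LARP1b peak had 0.859 and 0.835. At PHT4;3 and LARP1b only the short distal peak was at least 1.5-fold apart, and at CYCA2;4 the neighbouring peak had 0.764 and 0.876.

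Other genes had higher white light values at the second peak too. AT3G50560, of the NAD(P)-binding Rossmann-fold family, has a 151 bp peak next to the member with 0.0071 in wt D, 0.305 in wt R1h and 0.825 in wt WLc, and with 0.289, 0.595 and 0.686 in pifq. The log2 ratio of wt WLc to wt D at this neighbour was 3.54, beside 0.66 at the member itself, and its dark-grown pifq value was above dark-grown wild type. UGP2 has a second peak 3773.5 bp from its start with 0.158, 0.567 and 0.713 in wt and 0.324, 0.763 and 0.722 in pifq. These neighbours failed the rule through wt R1h and pifq D, so 1 gene can hold peaks of more than 1 class.

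At AT1G01320, a tetratricopeptide repeat-like protein, the member, centred 592.5 bp from the gene start, was at 0.374 in darkness and 0.603 in white light in wt. Its other peak, 9569 bp from the start, was at 0.826 and 0.360, a log2 ratio of -1.06. The peaks assigned to this gene thus went in opposite directions in wt. The distal one is centred past the annotated end of the gene, so its values describe the interval. At AT4G14090 a 125 bp peak nearer to the start had 0.168 in pifq R1h and 0.823 in pifq WLc. AT1G01320 and AT3G50560 were picked after their values had been seen.

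The members were spread over all 5 chromosomes, with 17, 10, 15, 14 and 20 from chromosome 1 to 5. Within 20 kb of each other lay AT2G04790 and AT2G04800, with centres 7896.5 bp apart, and AT5G53920 and TAT7, 18397.5 bp apart. A single peak was assigned to SOFL1, a SOB FIVE-LIKE protein gene, and to AT1G26208, annotated as another RNA. A further single peak was assigned to AT5G18748 and AT5G18750. The values of each such pair are 1 measurement, and antisense or overlapping genes cannot be told apart in ChIP signal.

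Most members belonged to none of the gene lists. Of 32 lists of genes by function, with 730 genes that have a peak, 6 lists held 7 members in all, and 26 lists held none, beside 0.430% of all 17672 genes with a peak. There were 0 members among 20 light harvesting genes, 0 among 34 genes of the photosystems and electron transport and 0 among 19 genes of the Calvin-Benson cycle, lists so small that the share over all genes gives fewer than 1 member. In those lists wt WLc was at least 1.5 times wt D for 13, 22 and 13 genes, and 2, 14 and 7 of these were below 1.5 times wt D after red light. The median log2 ratio of pifq D to wt D was 0.92, 0.53 and 0.55 in these lists, above the limit of the rule.

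The 7 list members were CYCA2;4 and CYCD6;1 of 30 cell cycle genes with a peak, LP1 of 29 cuticle genes, TCH4 of 34 cell wall expansion genes, LHY of 22 clock genes, NPQ1 of 21 photoprotection and redox genes, and HAF2 of 24 histone acetylation enzymes. NPQ1 encodes violaxanthin de-epoxidase, the enzyme that makes zeaxanthin in strong light, and had 0.401, 0.465 and 0.657 in wt D, R1h and WLc and 0.493, 0.646 and 0.605 in pifq. LP1 encodes the lipid transfer protein LTP1 and had 0.336, 0.389 and 0.559 in wt and 0.389, 0.476 and 0.594 in pifq. In pifq, NPQ1 was highest after red light and LP1 in white light. The CYCA2;4 and HAF2 peaks lie nearer to the coding start of another gene. With only the highest-mean peak of each gene counted, 6 list members were left, with 1 in the cell cycle list.

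By the text of the gene annotation, 4 of 36 genes with a peak that the words for lipid transfer protein matched were members (11.1%), as were 3 of 134 disease resistance protein genes (2.24%), 2 of 131 cytochrome P450 genes (1.53%) and 2 of 85 genes named for pectin (2.35%), beside 0.430% of all genes with a peak. The families were not tested. The genes matched for lipid transfer were LP1, AT1G62510, AT4G00165 and GLTP3. GLTP3 is annotated as a glycolipid transfer protein and was matched by its text only, so the 36 genes are not 1 protein family. AT1G62510 had 0.159, 0.249 and 0.499 in wt D, R1h and WLc and 0.142, 0.246 and 0.432 in pifq, and AT4G00165 had 0.264, 0.368 and 0.434 in wt and 0.316, 0.383 and 0.443 in pifq. In each genotype the order was D, R1h, WLc at LP1, AT1G62510 and AT4G00165, and at GLTP3 red light was the highest condition in pifq. A family added after the values had been seen, tetratricopeptide repeat-like proteins, had 4 members of 236 genes (1.69%). There were 0 members among 79 basic helix-loop-helix, 43 WRKY and 41 NAC transcription factor genes, where the share over all genes also gives fewer than 1. The 3 resistance genes were AT5G41740, AT4G09420 and AT1G63350, which were picked after their values had been seen, like AT1G62510 and AT4G00165.

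AT5G41740, of the TIR-NBS-LRR class of immune receptors, had 0.187, 0.291 and 0.463 in wt D, R1h and WLc and 0.113, 0.203 and 0.566 in pifq. AT4G09420, of the TIR-NBS class, had 0.244, 0.300 and 0.511 in wt and 0.302, 0.309 and 0.404 in pifq. AT1G63350, of the CC-NBS-LRR class, had 0.330, 0.321 and 0.632 in wt and 0.383, 0.447 and 0.608 in pifq. All 3 were highest in WLc in each genotype. Genes of this family are near-identical in places, and how reads that match several copies were treated is not given in the sources used here.

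PIF targets made up a small share of the members and of all genes. Of 338 genes listed by the study as PIF-DTGs, PIF-bound genes with altered transcripts in dark-grown pifq, 260 have a peak and 2 were members, MPK5 and CYP706A1. That is 2.63% of the members, beside 1.47% of all genes with a peak. Of 58 LRP-DTGs, the subset whose transcripts respond in the same direction to 1 h of red light and to the loss of the PIFs, 51 have a peak, 0.289% of all genes with a peak, and 0 were members. These counts are too small to set the members apart from all genes. MPK5, a MAP kinase, had 0.379, 0.473 and 0.712 in wt D, R1h and WLc and 0.456, 0.461 and 0.495 in pifq. CYP706A1, a cytochrome P450, had 0.354, 0.466 and 0.592 in wt and 0.271, 0.502 and 0.698 in pifq. The 2 targets differed in pifq, where MPK5 kept within a narrow range in all light conditions and CYP706A1 was higher with light, more so in white light.

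Of 42 marker genes of cell types, 13 have a peak and 0 were members, and the 5 markers of dividing cells have none. In wt WLc against wt D, 3 of the 13 were at least 1.5 times higher and 6 at least 1.5 times lower. Of 9 stomatal lineage markers 3 have a peak, and these were all at least 1.5 times higher in wt WLc than in wt D. Their summed signal was 1.07 in wt D, 1.73 in wt R1h, 2.38 in wt WLc, 1.91 in pifq D, 2.03 in pifq R1h and 2.49 in pifq WLc. In the wider gene list of the stomatal lineage, 6 of 10 genes with a peak were that much higher and 1 was that much lower. Of 4 root markers 3 were at least 1.5 times lower, with sums of 3.20, 3.21 and 1.78 in wt and 1.84, 1.99 and 2.2 in pifq. The part of such shifts in the values of the members was not tested.

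In the 300-base promoter windows, the G-box was present in 6 of 76 member genes (7.89%), beside 8.86% of genes with a peak and 6.46% of all promoters. CACATG was present in 18 (23.7%), beside 12.7% of genes with a peak and 12.9% of all promoters, and either of both motifs in 22 (28.9%), beside 20.2% and 18.3%. Both strands were searched, and the G-box and CACATG do not share a match. Genes with CACATG included MPK5, UGP2, LARP1b, AT2G35290 and AT5G07400, and genes with the G-box included LHY, BT1 and AT5G41740. These shares describe letters in the window and carry no test. The windows are those of the assigned genes, whose start was the nearest coding start for 64 of the 76 members. At 20 members the peak centre lay over 1000 bp downstream of the start, as at AT5G07400, so the window does not hold the peak centre there.

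Other motifs were present at shares from 0% to 17.1%. The I-box, GATAAG, was present in 13 member promoters (17.1%), beside 15.1% of genes with a peak. The site II element, TGGGCC, which is known from genes of growing cells, was present in 8 (10.5%), beside 19.3%, and the telo-box, AAACCCT, in 8 (10.5%), beside 9.15%. The E2F site, TTCCCGC, was present in 0, beside 1.3%, and AACGGT, the core of an element of mitotic genes, in 5 (6.58%), beside 10.4%. The promoters of CYCA2;4 and CYCD6;1 thus held no E2F site of these letters.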

How the data were processed

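Bowtie2 was used by the authors to align H3K9ac and input reads, BayesPeak to find enriched regions and DiffBind to compare them, and the gene whose start lay closest was taken as that of a peak. The deposited table holds signal values per bp of peak, 1 per peak and group. How replicates were combined is not given in the sources used here, and depth per library is unknown, so precision cannot be had. The methods name the build TAIR9 and the notes TAIR10, which share chromosome sequences. Names, positions and sequences come from RefSeq build TAIR10.1.

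A value of 0.07 was added before ratios. The fit planned for values per library was not run. The members, gene lists and rule for named genes were chosen with earlier results of these data known. Genes were named if they were among the 15 largest wt WLc to wt D ratios, or the 8 highest or lowest ratios of pifq WLc to pifq R1h or to wt WLc, with a value of at least the median of all values (0.717), or were list members, PIF-DTGs or next to a limit. Fewer than 15 members reached that value in wt WLc, so each that did was named. The family text search was made independent of case, and the tetratricopeptide family added, after counts were seen. Other values of the added constant, other scalings, filters and limits were tried. Python 3.11.15, pandas 2.3.3, numpy 2.4.6 and matplotlib 3.10.9 were used, and the rule was tested on simulated data. The promoter and values of 1 named member are not reported here.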

Additional observations from a re-analysis of the deposited data

How the results depend on the processing

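Membership depended on the added constant and on quantile normalization. With 0.007 in place of 0.07, 72 peaks met the rule, 46 of them members; with 0.35, 66 did, 12 of them members; with 1, 46 did, none of them a member. Columns scaled to equal medians gave 68 peaks, all members, and quantile normalization 102 with 30 members. Without the lowest 10% of entries by mean signal 43 members were left. A white light limit of 2 gave 10, and a limit of 1.0 for pifq D gave 21. Among the 76 members, held fixed, the number at least 1.5 times higher in pifq WLc than in pifq R1h was 10 with 0.35, 0 with 1 and 4 without the lowest 10%. The number higher in pifq R1h than in pifq D was 15 with 0.007, 0 with 0.35 and 0 with 1. The number at least 1.5-fold apart between pifq WLc and wt WLc was 0 with 0.35, 0 with 1 and 1 without the lowest 10%. A larger constant makes every ratio smaller by construction. Counting each peak a single time, an alternative chosen after seeing the data, gave 74 peaks and 18 higher in pifq WLc. Median log2 ratios of the fixed members were followed for pifq WLc to pifq R1h, pifq WLc to wt WLc and pifq R1h to pifq D. Their sign cannot change with the added constant, so nothing is read from it there. With a constant of 1 they shrank from 0.28 to 0.11, from -0.10 to -0.044 and from 0.27 to 0.094, in that order. These medians kept their sign when columns were rescaled or quantile-normalized and without the lowest 10%. No paired analysis was possible because the table holds 1 pooled value per group, and no replicate could be left out for the same reason.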
